A study of Sus scrofa with 9 samples.

Results

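The genes described are CD14, CD163, S100A8, S100A9, S100A12, AIF1, LYZ and CSF1R, which are known markers of monocytes, macrophages or neutrophils, together with FGL2. They were chosen by name. Every probe whose sequence accession belongs to one of them in a RefSeq annotation of the pig was taken, which gave 19 of the 43603 probes and 8 of the 9 genes. CSF1R was not analysed here. FGL2 had 5 probes, CD163 had 4, LYZ had 3, CD14 and AIF1 had 2 each, and S100A8, S100A9 and S100A12 had 1 each.

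The study compared T cells sorted from the blood of sows on 9 one-colour microarrays, with 3 arrays (n = 3) for each of 3 fractions. CD3+CD4+CD8+ cells are called DP here, CD3+CD4+ cells the CD4 fraction or CD4 cells, and CD3+CD8+ cells the CD8 fraction or CD8 cells. CD3 marks T cells, and pig blood holds many T cells with both co-receptors. The labels name no treatment. The sources used here do not give the age and number of the sows, the antibodies or the purity of the sorts. The series' design text calls the arrays of a fraction biological replicates. If the replicates shared animals, the p-values measure only the spread between these arrays.

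CD14 helps monocytes and macrophages to bind bacterial lipopolysaccharide, and CD163 takes up haemoglobin bound to haptoglobin. S100A8 and S100A9 form calprotectin, an abundant calcium-binding protein of neutrophils and monocytes, and S100A12 is a relative of both that mice lack. LYZ is lysozyme, which cleaves bacterial cell walls. AIF1 is a calcium- and actin-binding protein of macrophages, and it has also been reported in lymphocytes. FGL2 is a fibrinogen-like protein with a membrane form on macrophages that cleaves prothrombin, and a secreted form that regulatory T cells of mice release and that binds Fc gamma receptors. The other genes are not typical products of T cells. In such bulk samples, fewer cells of a type and less RNA per cell cannot be told apart.

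The arrays differed in brightness. The 75th percentile of the signal lay between 18.9 and 42.3 units in DP, between 15.1 and 83.7 in the CD4 fraction and between 18.3 and 29.6 for CD8. The share of probes that the scanner software marked as well above background ran from 32.6% on CD4 array 2 to 53.7% on CD4 array 1. Levels below are on the log2 scale, relative to the 75th percentile of the same array, which is 0. The lowest level marked as well above background was -3.42 on CD4 array 1 and -0.78 on CD4 array 2, so the same relative level could be marked on one array and not on another. On 8 of the arrays a single lowest value was shared by 26.6% to 34.6% of the probes, and probes at that floor have no order. Slide 1 carried DP array 1, slide 2 carried DP array 2, CD4 array 2 and CD8 arrays 1 and 2, and slide 3 carried the others. Probes marked throughout at least 1 fraction were tested, 16024 in all and 8 of the 19 member probes, which belong to FGL2, LYZ, AIF1 and S100A12. FGL2 A_72_P443205 met this in every fraction. FGL2 A_72_P180891 and A_72_P077766 and LYZ A_72_P737919 met it through DP and CD8, FGL2 A_72_P598473 through DP alone, AIF1 A_72_P394883 and LYZ A_72_P721793 through CD8 alone, and S100A12 through CD4 alone. Such an entry favours a higher level in the fraction that gave it. A difference passed, or was called, at an adjusted p under 0.05 over all tested probes.

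The sorting markers differed in the direction of the labels. CD8A in DP exceeded its level in the CD4 fraction by 3.20 (adjusted p = 0.0178), and CD4 in DP exceeded its level in the CD8 fraction by 4.18 (adjusted p = 0.0206). Both CD4 probes passed there, whereas the second CD8A probe, at 2.38, did not (adjusted p = 0.399). The leading CD8A probe was also well above background on all 3 CD4 arrays, and each CD4 probe on 1 CD8 array. The 6 T cell genes on the array, CD3D, CD3E, CD3G, CD247, CD2 and LCK, were all tested, and none passed in any comparison, with adjustment by limma or, at an unadjusted p under 0.05, without it.

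The myeloid markers differed in how often the scanner software marked them as well above background. S100A8 and S100A9 were marked on none of the 9 arrays and CD163 on 1, while the leading probes of CD14, S100A12, AIF1 and LYZ were marked on 5, 6, 7 and 7 arrays. The other 3 of the 4 CD163 probes were marked on none. The 5 probes never marked are 26.3% of the members, against 38.8% among all probes of the array. Only 1 member probe, FGL2 A_72_P443205, was well above background on all 9 arrays, which is 5.26% of the members, against 25.6% of all probes. The other 13 were marked on some arrays and not on others, a share of 68.4% against 35.6% of all probes. The counts of marked member probes were 9, 6 and 10 for DP arrays 1 to 3, 11, 3 and 5 for the CD4 arrays, and 7, 7 and 11 for the CD8 arrays. The lowest count came from the dimmest array, CD4 array 2, and the highest was shared by the brightest array, CD4 array 1, and CD8 array 3.

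**Figure D1:**
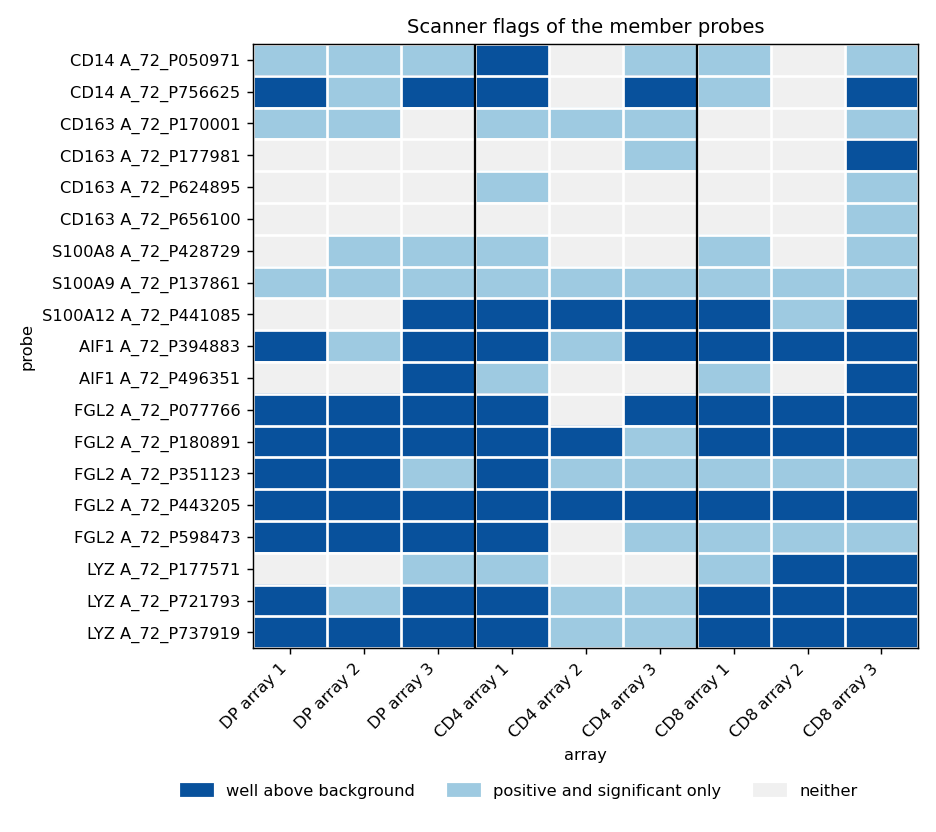
Scanner flags of the 19 member probes (rows, by gene) on the 9 arrays (columns, DP, CD4 and CD8). Dark squares mark signal well above background, light blue squares signal that is positive and significant only, and grey squares neither. FGL2 A_72_P443205 is dark across all 9 arrays, while S100A8, S100A9 and 3 CD163 probes have no dark square.

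The scavenger receptor CD163 had no probe well above background in DP or in the CD4 fraction. Its probe A_72_P177981 was marked on CD8 array 3 alone, with a signal of 16.8 units there. On the other 8 arrays this probe had at most 4.30 units. Probes A_72_P170001, A_72_P624895 and A_72_P656100 did not go over 6.28, 4.30 and 3.76 units on any array. CD8 array 3 was also the only array on which all 19 member probes were positive and significant over the local background, a weaker flag. The count with that flag was 12, 13 and 15 for DP, 17, 9 and 14 for CD4 and 15, 11 and 19 for CD8.

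The calgranulin genes differed from each other in their flags, although S100A8, S100A12 and S100A9 follow one another in the annotation. S100A8 had a signal between 1.67 and 4.94 units over the 9 arrays, with a median of 1.99, and was positive and significant on 5 of them. S100A9 had between 4.01 and 7.65 units, with a median of 4.91, and was positive and significant on all 9. S100A12 was well above background on 1 DP array, on all 3 CD4 arrays and on 2 CD8 arrays. Its signal was 1.85, 1.79 and 24.1 units in DP, 22.1, 17.4 and 10.4 in CD4 cells and 88.5, 2.14 and 28.5 in CD8 cells. The CD8 fraction thus held both the brightest array for S100A12 and one near the floor, and the groups overlapped.

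S100A12 was tested because the CD4 arrays passed the filter. Its level averaged -2.88 ± 2.80 in DP, -1.06 ± 1.12 in CD4 cells and -0.43 ± 2.90 in CD8 cells (SD, n = 3 each). DP differed from CD4 by -1.81, with a 95% interval from -4.93 to 1.30 and an adjusted p of 1.00. The difference from the CD8 fraction was -2.45 for DP (adjusted p = 0.917) and -0.64 for the CD4 fraction (adjusted p = 0.999). DP arrays 1 and 2 were at the floor, and no difference was detectable with this spread between arrays. On slide 2 the DP array was at its floor and the CD4 array was not, whereas on slide 3 DP minus CD4 was 2.05.

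CD14, the lipopolysaccharide co-receptor, was also irregular within fractions. Probe A_72_P756625 had a signal of 18.8, 4.67 and 13.3 units in DP, 66.4, 1.77 and 26.5 in CD4 cells and 3.62, 1.89 and 21.4 in CD8 cells. It was well above background on 2 DP arrays, 2 CD4 arrays and 1 CD8 array, so it was not tested. Among the arrays that share slide 3 it was marked on all 4, and among the 4 on slide 2 on none. That split occurred in 1.49% of all probes. More generally, 9 of the 19 member probes (47.4%) were marked on more arrays of slide 3 than of slide 2, against 23.1% of all probes, and 1 (5.26%) on fewer, against 6.06%. What the slide contributes to these flags was not tested. The second CD14 probe, A_72_P050971, ranged from 1.77 to 19.7 units and was marked on CD4 array 1 alone.

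Lysozyme was seen with 2 of its 3 probes in every fraction. Probe A_72_P737919 was well above background on 3 DP arrays, 1 CD4 array and 3 CD8 arrays, with levels of -1.46, -1.80 and 0.57 in DP, -0.35, -2.22 and -1.96 in CD4 cells and -0.12, -1.20 and 0.90 in CD8 cells. Array 3 was the highest of its fraction in both DP and CD8, and all 3 fractions overlapped. Their means were -0.90 ± 1.28, -1.51 ± 1.01 and -0.14 ± 1.05 (SD, n = 3 each, DP, CD4 and CD8). DP differed from the CD4 fraction by 0.61 (adjusted p = 1.00) and from the CD8 fraction by -0.75 (adjusted p = 0.999).

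The second probe, LYZ A_72_P721793, averaged -1.12 ± 1.22 in DP, -1.50 ± 0.99 in CD4 cells and -0.37 ± 0.77 in CD8 cells (SD, n = 3 each), and it correlated with the first at r = 0.906 over the 9 arrays. DP minus CD4 was 0.42 on slide 2 and 1.72 on slide 3 at A_72_P737919, and -0.97 and 1.76 at A_72_P721793. The CD4 fraction differed from the CD8 fraction by -1.37 at A_72_P737919 and by -1.13 at A_72_P721793, and neither passed. The third probe, A_72_P177571, was well above background on 2 CD8 arrays and on no DP or CD4 array. It did not enter the test. Its signal was 1.85, 1.79 and 5.76 units in DP, 7.51, 1.77 and 1.67 in CD4 cells and 8.27, 9.74 and 25.4 in CD8 cells.

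AIF1 lay lower on every CD4 array than on every CD8 array, as did 4.19% of all tested probes. The difference did not pass over all probes, and the leading probe entered the test through the CD8 arrays alone. Probe A_72_P394883 had levels of -1.29, -2.25 and 0.76 in DP, -1.59, -0.96 and -1.08 in CD4 cells and 0.67, 0.57 and 0.98 in CD8 cells. The CD8 arrays lay close together, and DP array 3 reached their range while DP arrays 1 and 2 did not. It was well above background on 2, 2 and 3 arrays of DP, CD4 and CD8. The means were -0.93 ± 1.54 in DP, -1.21 ± 0.33 in CD4 cells and 0.74 ± 0.21 in CD8 cells (SD, n = 3 each).

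For this AIF1 probe the CD4 fraction differed from the CD8 fraction by -1.95 (SE 0.67, adjusted p = 0.614), with a 95% interval from -3.39 to -0.51 that is not adjusted for the number of probes. The difference was -1.58 among the arrays on slide 2 and -2.32 among those on slide 3. DP differed from the CD8 fraction by -1.67 (SE 0.67, adjusted p = 0.649), and this was -2.87 on slide 2 and -0.22 on slide 3. DP differed from the CD4 fraction by 0.28 (adjusted p = 1.00), with a 95% interval from -1.16 to 1.73 and values of -1.29 on slide 2 and 2.09 on slide 3. Without DP array 3 this last difference was -0.56. The other AIF1 probe, A_72_P496351, was well above background on DP array 3 and CD8 array 3 alone and correlated with the first at r = 0.807 over the 9 arrays.

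**Figure D2:**
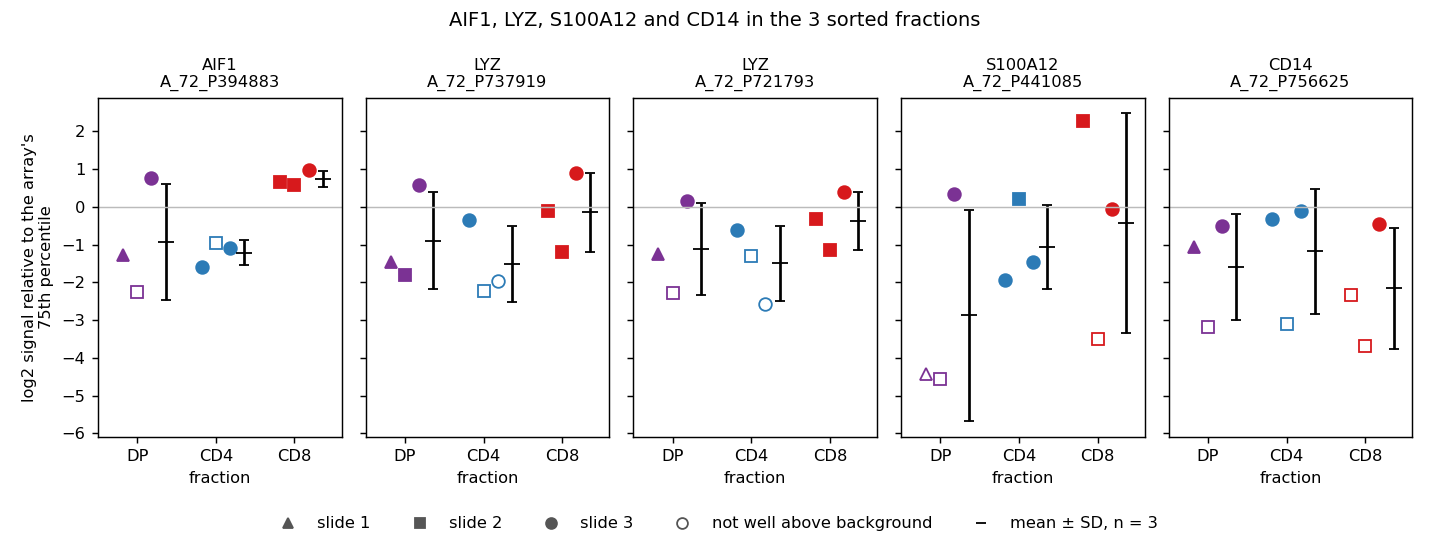
Levels of AIF1, LYZ (2 probes), S100A12 and CD14 by fraction (DP, CD4, CD8), as log2 signal relative to the array's 75th percentile. Points are arrays, shaped by slide and open where the probe was not well above background, and bars give the mean ± SD (n = 3). The AIF1 arrays of CD8 lie between 0.57 and 0.98, above all CD4 arrays, as at 4.19% of all tested probes, and the other panels overlap.

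FGL2 was the only member whose difference passed the test. All 4 tested FGL2 probes had a positive difference of DP from the CD4 fraction, and 2 of the 4 passed over all probes. At A_72_P443205, the FGL2 probe with the highest mean, the signal was 214, 163 and 81.1 units in DP, 101, 14.2 and 10.4 in CD4 cells and 50.1, 56.9 and 55.1 in CD8 cells. Relative to each array's 75th percentile these were levels of 2.43, 1.95 and 2.10 in DP, 0.27, -0.09 and -1.46 in CD4 cells and 1.45, 1.23 and 0.90 in CD8 cells. Every DP array lay above every CD8 array and every CD8 array above every CD4 array. Such an order without overlap occurred in 8 of the 16024 tested probes (0.0499%). The order counted was read from the values of this probe itself, so the share is a description and no test. The means were 2.16 ± 0.25 in DP, -0.43 ± 0.91 in CD4 cells and 1.19 ± 0.28 in CD8 cells (SD, n = 3 each).

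Probe A_72_P443205 was 6.01-fold higher in DP than in the CD4 fraction, a log2 difference of 2.59 (SE 0.48, adjusted p = 0.0472) with a 95% interval from 1.54 to 3.63. At FGL2 A_72_P180891 the difference was 3.10 (SE 0.53, adjusted p = 0.0262), or 8.58-fold, with an interval from 1.96 to 4.24. These were 2 of the 8 tested member probes. Among all 16024 tested probes 47 were called (0.293%), 36 of them higher in DP (0.225%). At an unadjusted p under 0.05 the members had 4 such probes, all of FGL2, against 4.84% of all tested probes, and only A_72_P443205 among them had entered through the CD4 arrays too. Both calls stood close to the threshold. With normexp background correction the difference at A_72_P443205 was 1.19 (adjusted p = 0.205), and with quantile normalization (0.0546) and the deposited table (0.0593) it did not pass. The first was kept in 1 of the 9 fits that leave out an array, without CD4 array 1 (adjusted p = 0.0460), and ranged there from 0.0460 to 0.285. The second was kept in 4 of the 9, and its adjusted p ranged from 0.0386 to 0.198, the highest without DP array 1. The differences themselves stayed between 2.07 and 2.94 and between 2.52 and 3.44.

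The same contrast held within each slide that carried both fractions. DP minus CD4 at A_72_P443205 was 2.04 among the arrays on slide 2 and 2.70 among those on slide 3, and at A_72_P180891 it was 1.98 and 3.45. With the slide as a block both calls ended, with a difference of 2.40 (adjusted p = 0.302) at the first probe. It left 2 called probes in all, or 0.0125% of those tested.

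The levels of FGL2 A_72_P180891 were 2.57, 1.70 and 2.15 in DP, -0.49, -0.28 and -2.12 in CD4 cells and 1.87, 1.35 and 1.02 in CD8 cells. They followed those of A_72_P443205 at r = 0.981 over the 9 arrays, and here DP and CD8 overlapped. FGL2 A_72_P077766 had 0.95, 1.62 and -0.70 in DP, -1.68, -3.10 and -1.73 in CD4 cells and -0.31, -0.08 and -0.37 in CD8 cells. Its difference of 2.79 between DP and CD4 did not pass (adjusted p = 0.111), and without DP array 3 it was 3.45 and passed (adjusted p = 0.0325). DP array 3 was the lowest of its fraction at this probe and lay above all CD4 arrays. On slide 3 the DP minus CD4 difference of A_72_P077766 was 1.00, and on slide 2 the CD4 array was at its floor.

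At FGL2 A_72_P598473 the levels were -0.07, -0.52 and -0.08 in DP, -2.42, -3.10 and -1.82 in CD4 cells and -1.57, -2.23 and -2.14 in CD8 cells. It was well above background on all DP arrays, on 1 CD4 array and on no CD8 array. The difference of DP from the CD4 fraction was 2.22, which did not pass (adjusted p = 0.189). Against the CD8 fraction the difference did not pass (adjusted p = 0.434), and the probe had entered the test through DP alone. Since no CD8 array was marked, the ratio of the means is given as a bound of 2.26-fold, without its sampling error. The bound sets the DP mean against, per array, the higher of the dim probe's own level and the lowest level that was well above background. The fifth probe, A_72_P351123, was marked on 2 DP arrays and 1 CD4 array and was not tested. Its levels were -1.51, -1.42 and -2.30 in DP, -2.85, -2.30 and -2.19 in CD4 cells and -1.66, -2.61 and -2.30 in CD8 cells, with overlap between all fractions. Pairs of FGL2 probes other than the closest one correlated at r between 0.484 and 0.758. The probes share a gene and are no replicates of each other.

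**Figure D3:**
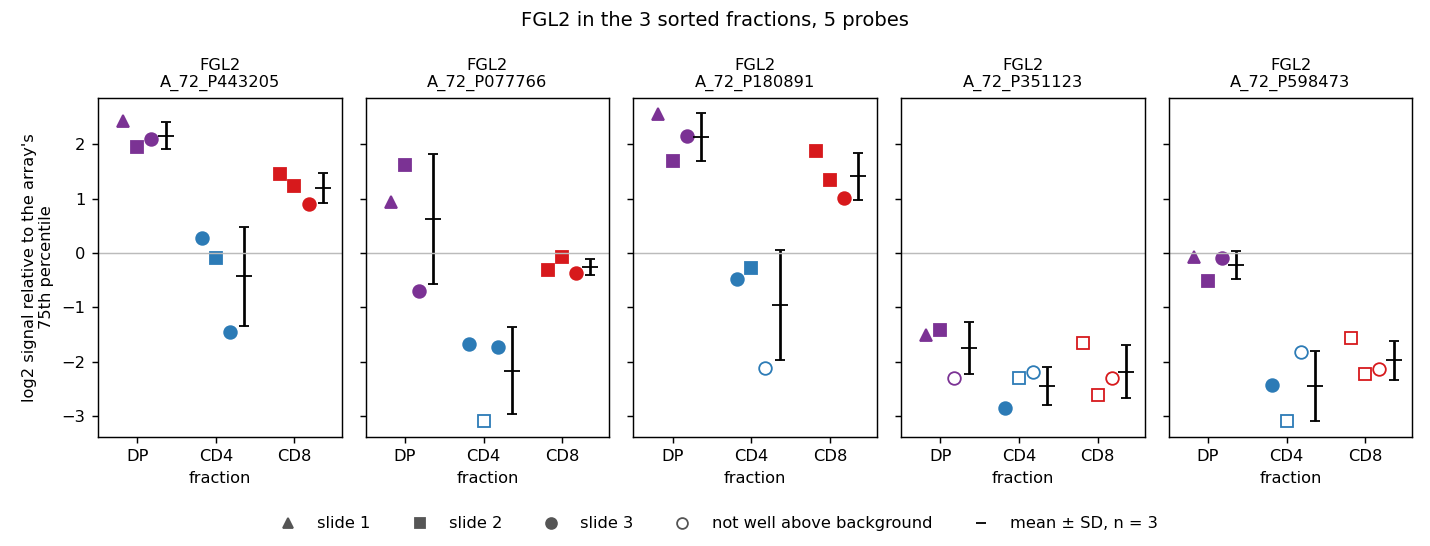
Levels of FGL2 by fraction (DP, CD4, CD8), 1 panel per probe, as log2 signal relative to the array's 75th percentile. Points are arrays, shaped by slide and open where the probe was not well above background, and bars give the mean ± SD (n = 3). At A_72_P443205 the DP arrays lie between 1.95 and 2.43, above the CD8 arrays at 0.90 to 1.45 and the CD4 arrays at -1.46 to 0.27.

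All arrays of DP lay above all of CD4 at A_72_P443205, as at 5.23% of all tested probes. Between DP and the CD8 fraction limma called no member, against 0.312% of all tested probes. At an unadjusted p under 0.05, 2 of the 8 tested member probes passed, against 6.51%, FGL2 A_72_P598473 and AIF1 A_72_P394883, which entered through DP alone and CD8 alone. With the replicate number as a block, 83 of all tested probes were called (0.518%) and still no member. The difference at FGL2 A_72_P443205 was 0.97 (SE 0.48, adjusted p = 0.823), with a 95% interval from -0.08 to 2.02, and its arrays did not overlap, as at 4.62% of all tested probes. It was 0.61 within slide 2 and 1.20 within slide 3. At A_72_P180891 it was 0.72 (adjusted p = 0.987), and at A_72_P077766 it was 0.88 (adjusted p = 0.987), with 1.82 on slide 2 and -0.32 on slide 3.

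Between the CD4 and the CD8 fraction limma called no member either, against 0.437% of all tested probes. At an unadjusted p under 0.05, 4 of the 8 passed, against 4.54% of all tested probes. They were AIF1 A_72_P394883 and FGL2 A_72_P443205, A_72_P180891 and A_72_P077766. Only FGL2 A_72_P443205 among them had entered through the CD4 arrays too. Entry through the CD8 arrays without the CD4 arrays favours a lower level in CD4 cells. The FGL2 difference was -1.62 at A_72_P443205 (SE 0.48, adjusted p = 0.422), -2.38 at A_72_P180891 (adjusted p = 0.102) and -1.91 at A_72_P077766 (adjusted p = 0.585). At A_72_P443205 every CD4 array lay below every CD8 array, which 4.19% of all tested probes did. With the replicate number as a block, which did not clearly pair these 2 fractions' arrays, A_72_P180891 passed (adjusted p = 0.0418), among 110 called probes (0.686%). Within slides 2 and 3 the difference at A_72_P443205 was -1.43 and -1.49. The 3 comparisons share arrays and are not independent of each other.

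**Figure D4:**
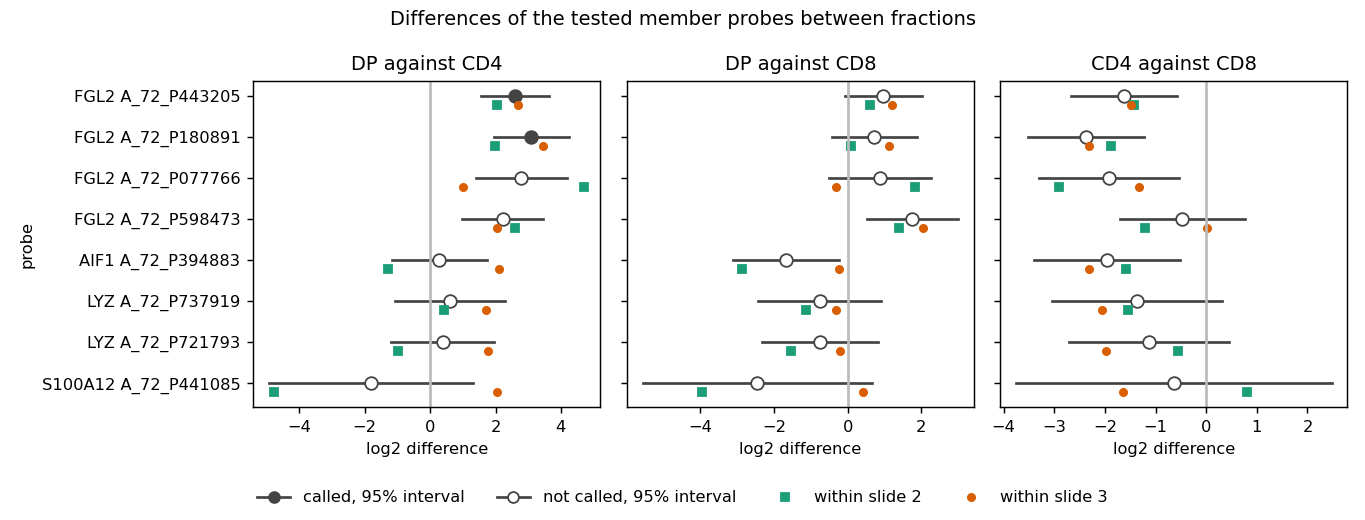
Log2 differences of the 8 tested member probes (rows) for DP against CD4, DP against CD8 and CD4 against CD8 (panels). Circles with lines are the fitted difference and its 95% interval, filled where called, and squares and small dots are the differences within slide 2 and slide 3. Filled circles stand at FGL2 A_72_P443205 (2.59) and A_72_P180891 (3.10) in DP against CD4 and nowhere else. On slide 2 the DP array at S100A12 and the CD4 array at FGL2 A_72_P077766 and A_72_P598473 were at the floor, so those squares rest on values with no order.

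A wider list of 65 myeloid genes had 32 on the array with 64 probes. Of these, 15 were tested, each by its probe with the highest mean, and limma called none in any of the 3 comparisons. At an unadjusted p under 0.05 there were 3 for DP against CD4, 4 for DP against CD8 and 1 for CD4 against CD8, beside 4.84%, 6.51% and 4.54% of all tested probes. These counts take 1 probe per gene, whereas the shares cover every tested probe. CCR2, counted in both DP comparisons, had entered the test through DP alone. FCER1G, counted in both CD8 comparisons, had entered through the CD4 and CD8 arrays. Among all 1507 named genes taken in that way, 0.73% were called for DP against CD4, 0.863% for DP against CD8 and 1.13% for CD4 against CD8. The Fc receptor FCGR1A and the beta-glucan receptor CLEC7A had no probe above background on an array. The median difference of the 15 was 0.55 for DP against CD4, 0.04 for DP against CD8 and -0.40 for CD4 against CD8, beside medians of -0.02, -0.03 and -0.01 over all tested probes. Several of the 15, such as TNF, CCR2 and CD86, are also made by T cells.

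The member of the wider list with the smallest p differed between comparisons. CD86, a co-stimulatory ligand, averaged 2.10 ± 0.41 in DP and -0.58 ± 1.19 in the CD4 fraction (SD, n = 3 each), a difference of 2.68 that did not pass (adjusted p = 0.168). CCR2, the receptor for the monocyte chemoattractant CCL2, averaged 1.27 ± 0.24 in DP and -0.97 ± 1.23 in the CD8 fraction (adjusted p = 0.214). FCER1G, the signalling chain that Fc receptors share, averaged -0.26 ± 0.60 in CD4 cells and 2.00 ± 0.20 in CD8 cells (adjusted p = 0.737). Its adaptor relative TYROBP showed overlap between all fractions.

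Of 29 partners of the members, which are receptors, ligands, relatives and genes of regulatory T cells, 19 were on the array and 7 were tested. Limma called none of the 7, and at an unadjusted p under 0.05 there were 4 for DP against CD4, 0 for DP against CD8 and 1 for CD4 against CD8, beside the same shares of all tested probes as for the wider list. The 4 were S100A6, S100A11, FCGR3A and F2, of which S100A11 and F2 had entered the test through DP alone. Here too the counts take 1 probe per gene and the shares cover every tested probe. TLR4 and TLR2, the receptors that act with CD14, had no probe above background on an array. Nor had the tissue factor gene F3 and the interleukin-2 receptor chain IL2RA. FOXP3, the regulator of regulatory T cells, was seen on some arrays but not tested. Each of its probes was marked on 1 or 2 DP arrays, on 1 or 2 CD4 arrays and on no CD8 array. LY96, which binds lipopolysaccharide beside TLR4, was tested and differed between DP and the CD8 fraction by 1.01 (adjusted p = 0.921). F2, prothrombin, the substrate of membrane FGL2, was well above background on all 3 DP arrays and on no CD4 or CD8 array. It entered the test through DP alone, no difference of it passed, and no excess over the CD8 fraction could be bounded.

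FCGR3A, the low-affinity Fc gamma receptor CD16, stood nearest to a call among the partners. Its levels were 6.57, 6.03 and 5.03 in DP, 3.59, 3.51 and 2.09 in CD4 cells and 5.64, 5.54 and 4.27 in CD8 cells. DP lay above CD4 without overlap, as at 5.23% of all tested probes. The difference of 2.81 (SE 0.54) missed the threshold (adjusted p = 0.0506), although 1 of its 3 probes was called. CD4 minus CD8 was -2.08 (adjusted p = 0.207).

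Among the 1502 named genes compared on the 9 arrays, FCGR3A was also the gene whose level was most like that of FGL2 A_72_P443205, with a Pearson r of 0.948. Next came the dystrophin gene DMD at 0.926, the cytokine interferon gamma, IFNG, at 0.895, the galectin LGALS1 at 0.889 and the calcium-binding S100A6 at 0.889. All 9 points share the 3 fractions, and on deviations from the fraction means r was 0.784 for FCGR3A, 0.626 for DMD, 0.386 for IFNG, 0.155 for LGALS1 and 0.854 for S100A6. On these deviations S100A6 and FCGR3A were thus the nearest of the 5 and LGALS1 the farthest. FGL2 varied most among the CD4 arrays (SD 0.91, against 0.25 in DP and 0.28 in CD8), so this r leans on the CD4 fraction. CD4 array 3 was the lowest CD4 array for FGL2, FCGR3A and S100A6 alike. IFNG was higher in DP than in the CD4 fraction by 4.29 (adjusted p = 0.00584) and LGALS1 by 2.90 (adjusted p = 0.0203). DMD (3.30, adjusted p = 0.0768) and S100A6 (2.42, adjusted p = 0.366) did not pass. The choice of these genes by the highest r to FGL2 favours such a difference, so it is a description and no separate support. IFNG and LGALS1 had also entered the test through DP and CD8 without CD4, and DMD through DP alone.

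The lowest r to FGL2 belonged to CCR7, the homing receptor of naive and central memory T cells, at -0.979, and to the cilium gene CLUAP1 at -0.910. CCR7 had levels of 2.46, 2.73 and 2.34 in DP, 3.68, 3.93 and 4.34 in CD4 cells and 2.82, 3.01 and 3.35 in CD8 cells. Its order of fractions was the opposite of that of FGL2, which its choice by the lowest r favours. On deviations from the fraction means, where r again leans on the CD4 arrays, it was -0.859. CCR7 differed between DP and the CD4 fraction by -1.48, which did not pass (adjusted p = 0.141). The other tested members were less like FGL2, with r of 0.163 for AIF1, 0.329 for LYZ and -0.240 for S100A12.

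AIF1 A_72_P394883 was most like FCER1G, with r = 0.961 over the 9 arrays and 0.934 on deviations from the fraction means. The next were the actin-severing CFL2 at 0.890, the B cell receptor chain CD79A at 0.882, the ubiquitin hydrolase UCHL1 at 0.877 and the lipid synthesis enzyme ACLY at 0.850. UCHL1 was well above background on the CD8 arrays alone. It was at the floor on DP arrays 1 and 2 and on CD4 arrays 2 and 3, so its r rests partly on values with no order. The lowest were CD4 at -0.826 and the cytokine receptor chain IL6ST at -0.805. FCER1G had levels of -0.40, -2.46 and 1.89 in DP, -0.65, -0.55 and 0.42 in CD4 cells and 2.23, 1.93 and 1.85 in CD8 cells. As for AIF1, DP array 3 was at the level of the CD8 arrays and DP array 2 was the lowest of all. LYZ correlated with AIF1 at 0.702 and S100A12 at 0.613.

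**Figure D5:**
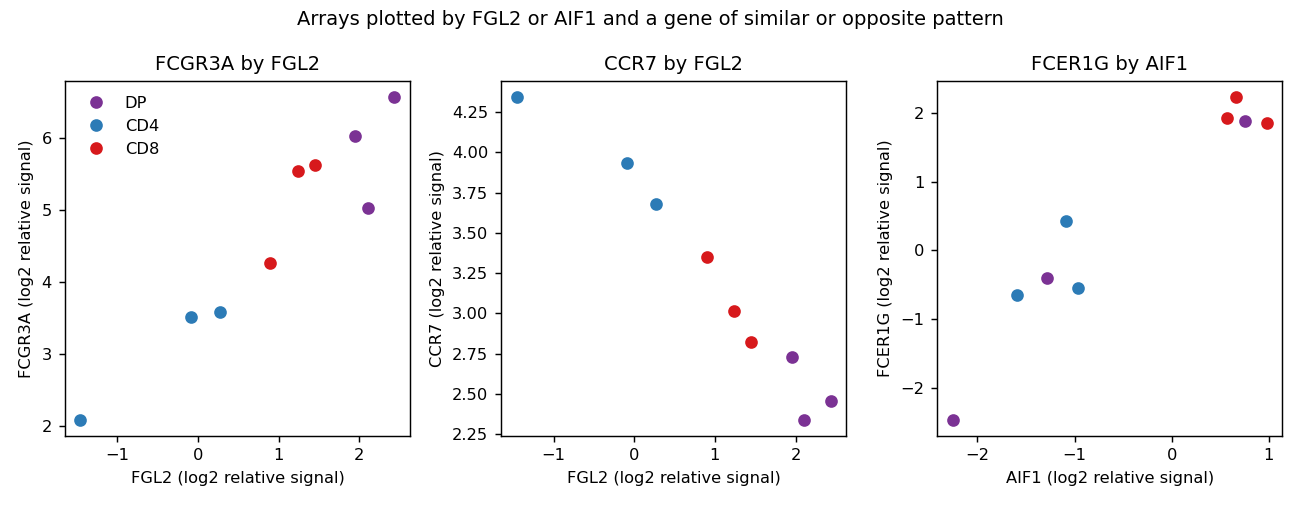
Levels of FCGR3A and CCR7 plotted by FGL2 A_72_P443205, and of FCER1G by AIF1 A_72_P394883, each axis as log2 signal relative to the array's 75th percentile. Points are the 9 arrays, coloured by fraction (DP, CD4, CD8). Pearson r was 0.948, -0.979 and 0.961 from left to right, and DP array 3 joins the CD8 arrays in the third panel.

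Markers of other blood cells were read beside these genes. The summed linear level of the 6 measured myeloid defining genes, CD14, CD163, S100A8, S100A9, S100A12 and LYZ, was 0.701 to 3.87 in DP, 1.99 to 2.05 in CD4 cells and 0.923 to 6.42 in CD8 cells, in units of the array's 75th percentile. That of 6 T cell genes was 136 to 255, 151 to 258 and 172 to 255. The myeloid sums overlapped between all fractions. They mix dim probes with probes, such as that of S100A12, whose level varied widely between arrays of a fraction. Of the 6 genes, S100A8 and S100A9 were well above background on no array.

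CD79A, the B cell receptor chain, averaged -0.05 ± 1.27 in DP, 0.17 ± 0.41 in CD4 cells and 3.16 ± 0.66 in CD8 cells (SD, n = 3 each), and its difference of DP from CD8 was -3.20 (adjusted p = 0.0453). BLNK, a B cell adaptor, was well above background on no array. The CD8 fraction had the highest mean of both AIF1 and CD79A. The 5 NK cell genes, FCGR3A among them, summed to 43.8 to 113 in DP, 6.07 to 14.7 in CD4 cells and 31.1 to 81.7 in CD8 cells, and NCR1 was well above background on no array. FCGR3A weighed most in these linear sums and averaged 5.88 in DP and 5.15 in CD8 cells. KLRK1 and NKG7 had the higher mean in CD8 cells, 3.40 against 2.23 in DP and 2.84 against 2.39. NKG7, KLRK1 and FCGR3A are also expressed by cytotoxic T cells. Platelet genes overlapped between the fractions, with sums of 2.43 to 4.32 in DP, 2.81 to 3.71 in CD4 cells and 1.28 to 4.53 in CD8 cells. The part of any of these cells in the differences of AIF1 and FGL2 was not tested.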

How the data were processed

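Agilent Feature Extraction 11.0.1.1 with its one-colour protocol produced the scanner files, per the file headers. Their deposited processed signal is a linear intensity, corrected for background by that software and not normalized between arrays. A deposited table of log2 values, whose 9 columns share a median of 2.60, was used as an alternative. Larger values in it meant brighter spots, no centring of genes was seen, and the sources used here do not name the program behind it. Its CD8 columns 1, 2 and 3 followed scanner files 3, 1 and 2. Per the labels' protocols, mononuclear cells were isolated on Percoll, RNA was extracted with Trizol, and 25 ng was amplified with the Ovation PicoSL WTA System V2 and labelled with Cy3, which can distort low levels. The number of arrays limits the precision.

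Control spots and 1 to 12 outlier spots per array were left out, no spot was saturated, and spots of a probe were averaged. Each processed signal was taken to log2 and set against the 75th percentile of its array. The test took the 16024 probes marked well above background throughout 1 fraction or more, with 2 or more values in each fraction. Fits used limma 3.58.1 in R 4.3.3 (lmFit, eBayes with trend, two-sided) on all 9 arrays without a block, with Benjamini-Hochberg adjustment over these probes at 0.05, and limma gives every adjusted p in the text. The step was tested on simulated data. Probes were named through unversioned accessions in a RefSeq annotation of Sscrofa11.1, which gave 6730 probes (15.4%) a name. No coordinates are given because the files state no genome build. Figures were drawn with Python 3.11.15 and matplotlib 3.10.9.

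Every member probe is described, each gene led by its probe with the highest mean. For FGL2 and AIF1, the 5 named genes with the highest and the 2 with the lowest r are named, and from the wider lists the called members or, with none, the one with the smallest p. TYROBP, TLR4, TLR2, F2, F3, FOXP3, IL2RA, FCGR1A, CLEC7A and TNF were named after their values were seen. By the numbers of the scanner files, same-numbered DP and CD8 arrays correlated at 0.266, 0.329 and 0.330 in their deviations from the fraction means. Arrays numbered 2 share a slide, as do those numbered 3, so number and slide cannot be told apart there. The deposited table numbers the CD8 arrays otherwise. The members and lists were chosen with earlier results of these data known. Lists of red cell and dendritic cell markers had no tested gene. An item of a marker list is not reported here. Alternatives were normexp, quantile normalization, another percentile, the deposited table, other filters, blocks, fewer fractions and leaving out each array. The files hold no mean signal, so normexp ran on median signals.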

Additional observations from a re-analysis of the deposited data

How the results depend on the processing

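The 2 calls of FGL2 in DP against CD4 lie near the threshold. The number of member probes called there was 2, and it was 1 with quantile normalization and with the deposited table, and 0 with normexp, with probes above background on all 9 arrays, with the slide as a block, with only the 2 fractions compared in the fit, and with a block numbered as in the deposited table. For FGL2 A_72_P443205 the difference of 2.59 was 1.19 with normexp (adjusted p = 0.205), 2.61 with quantile normalization (0.0546), 2.63 with the deposited table (0.0593), 2.40 with the slide block (0.302), and 2.59 with the 9-array filter (0.0617), with 2 fractions (0.0981) and with the table's numbering as block (0.0731). Leaving out an array gave 2.07 to 2.94 for this probe and 0 to 2 called members, with 0 without DP arrays 1 and 2, without CD4 arrays 2 and 3 and without CD8 array 2, and 1 without CD8 arrays 1 and 3. In DP against CD8 and CD4 against CD8 it left 0 called. The cause was not tested.

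Over all probes, 47 were called in DP against CD4, and 1 with normexp, 109 without a filter, 12 with the 9-array filter, 2 with the slide block, 29 with 2 fractions, 30 with the table's numbering as block, and 2 to 55 when leaving out an array, the lowest without DP array 1. In DP against CD8 the 50 became 7 with normexp, 22 with a percentile over detected probes, 87 without a filter, 5 with the 9-array filter, 2 with the slide block, 24 with the deposited table, 22 with 2 fractions, 21 with the table's numbering, and 1 to 51 when leaving out an array, the lowest again without DP array 1. In CD4 against CD8 the 70 became 6 with normexp, 12 with the 9-array filter, 38 with the slide block, and 31 to 81 when leaving out an array, the lowest without CD8 array 2. Without a filter the median of all probes moved to -0.32 in DP against CD8 and to -0.24 in CD4 against CD8.

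Same-numbered arrays correlated, in their deviations from the fraction means, between -0.0667 and 0.647. DP with CD4 gave 0.310, -0.0667 and 0.647, and CD4 with CD8 gave -0.0263, 0.141 and 0.387. Whether the numbers pair the arrays is thus not settled. With the replicate block, 144, 83 and 110 probes were called in DP against CD4, DP against CD8 and CD4 against CD8, and with block and quantile normalization 124, 88 and 112. FGL2 A_72_P443205 was 2.59 with the replicate block (adjusted p = 0.0155) and 1 member was called in CD4 against CD8, FGL2 A_72_P180891 at -2.38 (adjusted p = 0.0418). In DP against CD8 the block left the number of called genes in each list described as it was. The floor of all arrays as one value, the block with the table's numbering, and the block with quantile normalization were chosen after seeing the data.

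Signs turned in small differences that never passed. AIF1 in DP against CD4 was -0.56 without DP array 3, in a range up to 0.95. LYZ A_72_P721793 in DP against CD4 was -0.0019 with normexp, -0.26 without DP array 3 and -0.16 without CD4 array 3, in a range up to 0.96, and LYZ A_72_P737919 was -0.062 with normexp and -0.12 without DP array 3. S100A12 in CD4 against CD8 was 0.71 without CD8 array 1, in a range down to -2.17. Detection depends on the flag: 8 member probes were marked throughout 1 fraction or more as well above background, 14 as positive and significant, and 13 lay above the 99th percentile of the negative controls. The 5 probes marked on no array became 0 with either weaker flag. With quantile normalization 3 of the 5 genes most like FGL2 and 4 of the 5 most like AIF1 were the same genes. Signal over background limits the dim probes.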
